A study of Mus musculus with 4 samples.

Results

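The genes described here encode SR proteins and their close relatives: Srsf1, Srsf2, Srsf3, Srsf4, Srsf5, Srsf6, Srsf7, Srsf10, Tra2a and Tra2b. They were chosen by name, and all their transcripts and exon-exon junctions were taken from the deposited tables. This gave 10 of 22730 genes, 19 of 28283 transcripts, and 229 of 1921627 listed junctions. Of the 229 junctions, 64 were marked as known and all 64 had reads, while 165 were marked as putative and 17 of these had a read.

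RNA from total thymocytes, the developing T cells of the thymus, was sequenced from 2 wild-type mice and from 2 mice labelled hnRNP L KO. hnRNP L is an RNA-binding protein that regulates splicing and is known for binding CA-rich RNA. The labels give all 4 mice one background, in which C57BL/6 was mixed with the LckCre transgene, whose promoter is active in early thymocytes, with CD45.1 and with the fluorescent reporter allele Gt(ROSA)26Sortm4(ACTB-tdTomato,-EGFP)Luo. The labels used here do not say which of the mice had Cre, what part of Hnrnpl was removed, or how old the mice were. Each library came from 1 mouse, so the spread between libraries of a group is the spread between 2 mice.

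SR proteins bind exonic enhancer sequences in pre-mRNA and recruit the splicing machinery, and they also act in mRNA export and translation. Most of their genes carry a poison exon, a highly conserved stretch that brings a premature stop codon into the mRNA when it is spliced in. Such mRNAs are degraded by nonsense-mediated decay, and since many SR proteins promote inclusion of their own poison exon, this keeps their levels within limits.

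The poison exons measured here are those of Srsf3 and Srsf7, for which reads on both the inclusion and the skipping junctions were counted. The poison exon of Srsf3 is exon 4 of transcript NR_036613, 456 nt long, at mm9 chromosome 17, 29176399 to 29176854, plus strand. That of Srsf7 is exon 4 of NR_036615, 460 nt long, at chromosome 17, 80603962 to 80604421, minus strand. Shown are the first bases of each exon up to the stop codon they bring into the reading frame, from the GENCODE M21 transcripts of the same structure (build GRCm38), with the stop codon in capitals.
Srsf3 poison exon, start to stop: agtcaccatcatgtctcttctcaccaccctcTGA
Srsf7 poison exon, start to stop: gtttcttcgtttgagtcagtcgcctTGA

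In Srsf3 the stop comes 31 nt into the exon, after 124 codons, where the coding transcript has 164. In Srsf7 it comes 25 nt into the exon, after 137 codons, where the coding transcript of otherwise the same structure has 235. After the stop, 3 splice junctions follow in Srsf3 and 5 in Srsf7, the arrangement that marks an mRNA for decay. The letters ACACA, a CA-rich word searched on the transcript strand alone, occurred 1 time in the Srsf3 exon and 0 times in the Srsf7 exon. Of 1397 internal exons of 406 to 510 nt in GENCODE, 36.9% held this word. The letters CA occurred 58 times in the Srsf3 exon and 31 times in the Srsf7 exon, without a background count. The introns beside these exons were not searched. GENCODE M21 lists 15 decay transcripts for 9 of the 10 genes, all but Srsf10, and the introns that set them apart from coding transcripts number 26. Only 4 of these introns, all in Srsf3 and Srsf7, matched a known junction of the same width, so the poison exons of the other genes are not analysed here.

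Reads assigned to 1 transcript per gene ranged from 27548708 to 51544714 per library, and junction reads from 3302915 to 6146421, both deeper in wild type than in KO. Hnrnpl, the targeted gene, stood at 854 and 813 CPM (counts scaled to library size) in wild-type replicates 1 and 2, and at 467 and 208 in KO replicates 1 and 2. It was lower in both KO libraries and absent from neither. Its log2 fold change was -1.30 (edgeR adjusted p = 0.486), so the targeted gene did not itself pass the gene test used below. KO replicate 1 differed in sex from the others by its reads of Y-linked Ddx3y (4116, with 1 to 17 in the rest) and of Xist (222, with 57852 to 87390 in the rest). In wild-type replicate 1, 8.21% of gene reads fell on small RNA genes and their hosts, against 1.13 to 2.13% elsewhere. All 11 thymocyte markers looked up were tested, with a summed level of 17380 and 16711 CPM in wild type and 17583 and 13787 in KO. The largest part was Rag1 (7811 and 7402 against 7685 and 5529). Both KO libraries lay above both wild types for 2 markers, a pattern seen in 23.3% of all genes. These were Cd3e (120 and 178 against 226 and 357) and Rag2 (340 and 335 against 491 and 570). They lay below for 2 (21.4% of all genes), Cd3d (424 and 356 against 338 and 296) and Lck (1701 and 1634 against 1540 and 1264). The other thymocyte markers overlapped. The summed erythroid markers (6 of 8 found, 5 past the filter on low counts and summed) stood at 287 CPM in KO replicate 1 and 60.05 to 87.0 elsewhere. Most of the 287 came from Alas2 (118) and Hbb-b1 (162). Slc4a1 was higher in both KO libraries (4.42 and 4.13 CPM, against 1.39 and 3.08 in wild type). The 10 stromal markers stood at 146 CPM in KO replicate 2 and 59.0 to 87.0 elsewhere. The 5 myeloid markers stood at 122 to 126 CPM in wild type and 138 to 141 in KO, the 5 B cell markers at 31.5 to 38.8 in all libraries, and no listed marker was at 0 in all libraries. With the small RNA genes left out, the gene test used below called 0 members. Srsf10, Tra2a and Tra2b then had log2 fold changes of -0.39, -0.36 and -0.27, beside -0.40, -0.37 and -0.28 with them. Apart from that fit, the part of these differences in the results below was not tested.

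Whether a lower level of Hnrnpl went with a change in the amount of SR protein mRNA was compared first. No member passed the test over all genes, while 3 of 10 had an unadjusted p under 0.05, all of them lower in KO: Srsf10, Tra2a and Tra2b. Over all 13733 genes tested with edgeR's quasi-likelihood test, 1 gene or 0.00728% passed at an adjusted p under 0.05, and 3.61% had an unadjusted p under 0.05 on the lower side (6.29% on the higher side). Both KO libraries lay below both wild types for 6 members, a pattern seen in 21.4% of all genes, and above both for 1 member, against 23.3% of all genes. The fitted log2 fold change was below 0 for 8 of 10 members and 48.9% of all genes, with a median of -0.10 over the members and 0.01 over all genes. Over all genes, DESeq2 called 69 higher and 39 lower, and limma-voom called 0. For these and the settings that follow, the share of all genes at an unadjusted p under 0.05 was not counted. DESeq2 and limma-voom also called none of the 10, each with 3 members at an unadjusted p under 0.05. That number was 2 under upper-quartile scaling (without Tra2b), 2 when the transcripts of a gene were summed (without Srsf10), and 1 or 0 when the first or the second wild-type library was left out. It stayed at 3 when either KO library was, but with Srsf5, on the higher side, in place of Tra2b when that was KO replicate 1. In RNA from a whole cell population, fewer cells of a type and less RNA per cell cannot be told apart.

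Srsf10 encodes an SR-like protein that represses splicing when dephosphorylated, for example after heat shock (NM_010178, mm9 chromosome 4, 135412007 to 135425814). It had 71.9 and 75.03 CPM in wild type (73.5 ± 2.19, SD, n = 2) and 55.4 and 56.3 in KO (55.9 ± 0.587, SD, n = 2). The groups did not overlap, and each was tight. The log2 fold change was -0.40 (SE 0.10, unadjusted p = 0.00583, edgeR adjusted p = 0.414), or 0.760 times the wild-type level. With both Srsf10 transcripts summed it was -0.23 (unadjusted p = 0.0809 by edgeR). That sum counts reads on the exons they share for each transcript, so it is not a count of separate reads. Over the 4 libraries, the genes outside the family whose centred log2 CPM lay nearest to that of Srsf10 were Stx1a, Hist1h2ad and Atf5, at distances of 0.03 for each.

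Tra2a and Tra2b encode the Transformer-2 proteins, which activate exons through enhancers rich in purines. Tra2a (NM_198102, chromosome 6, 49193920 to 49214051) had 218 and 218 CPM in wild type and 164 and 174 in KO. Its log2 fold change was -0.37 (SE 0.11, unadjusted p = 0.0138, edgeR adjusted p = 0.452), and both KO libraries lay below both wild types. Known junctions of Tra2a, a readout of spliced RNA counted separately, held 193 and 189 junction CPM (counts scaled to the library's junction reads) in wild type and 135 and 167 in KO, again without overlap. Tra2b (NM_009186, chromosome 16, 22245814 to 22266002) had 59.9 and 58.8 CPM in wild type and 48.3 and 49.7 in KO, a log2 fold change of -0.28 (SE 0.10, unadjusted p = 0.0303, edgeR adjusted p = 0.486). Its known junctions held 379 and 335 junction CPM in wild type and 306 and 308 in KO. Both readouts thus placed both KO libraries lower for both Transformer-2 genes. The same held for Srsf2 (161 and 163 junction CPM in wild type, 132 and 154 in KO) and Srsf7 (370 and 428 against 346 and 368). It was not so for Srsf10, whose junctions held 116 and 143 junction CPM in wild type and 117 in each KO. The readouts come from the same libraries, and how often other genes show this in both was not counted.

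Srsf5, an SR protein with a pair of RNA recognition motifs, was the only member with both KO libraries above both wild types (NM_001079695, chromosome 12, 82046491 to 82051494). It had 50.1 and 58.7 CPM in wild type and 59.2 and 70.3 in KO, a log2 fold change of 0.25 (SE 0.13, unadjusted p = 0.0999, edgeR adjusted p = 0.544). The gap between wild-type replicate 2 and KO replicate 1 was small beside the spread within each group, and the fold change ranged from 0.12 (KO replicate 2 omitted) to 0.37 (wild-type replicate 2 omitted). Known junctions of Srsf5 held 105 and 145 junction CPM in wild type and 171 and 203 in KO, a wider separation in the same direction (0.58 on the log2 scale for the ratio of means, not tested). Srsf4, a long SR protein with an extended arginine-serine domain, was the other member above 0, at 81.4 and 107 CPM in wild type and 98.2 and 112 in KO. These groups overlapped (log2 fold change 0.15, SE 0.16, edgeR adjusted p = 0.725), and the value turned to -0.029 without wild-type replicate 1.

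The other SR proteins, which include the founding member Srsf1 and the abundant Srsf2 of nuclear speckles, differed by 0.14 or less on the log2 scale. Srsf2 had 450 and 437 CPM in wild type and 375 and 431 in KO (log2 fold change -0.14, SE 0.13, edgeR adjusted p = 0.705), a value of -0.049 with KO replicate 1 omitted and -0.24 with KO replicate 2 omitted. Srsf7, which also acts in mRNA export, had 360 and 384 against 342 and 346 (-0.11, SE 0.12, adjusted p = 0.741), and Srsf6 had 545 and 542 against 502 and 521 (-0.09, SE 0.13, adjusted p = 0.814). For these 3 genes the groups did not overlap, and the fitted change was close to its standard error or below it. Srsf1 had 814 and 907 CPM in wild type and 837 and 822 in KO, and Srsf3, the smallest SR protein, had 272 and 285 against 269 and 279, so both overlapped (log2 fold changes of -0.05 and -0.02). The sign for Srsf3 was positive under upper-quartile scaling (0.032), and without wild-type replicate 2 it was positive for Srsf1 (0.030) and Srsf3 (0.017). The levels of Srsf3 and Srsf7 are those of NR_036613 and NR_036615, the transcripts with the poison exon, whose reads they include. Fitted on their own, the coding transcripts NM_013663 (Srsf3) and NM_001195485 (Srsf7) had log2 fold changes of -0.05 and -0.13.

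Per length, Srsf2 was the most abundant, with an RPKM (reads scaled by transcript length and mapped reads, as deposited) of 93.9 ± 2.34 in wild type and 85.8 ± 9.93 in KO (SD, n = 2 each). Srsf1 (66.1 ± 8.02 in wild type), Srsf6 (61.8 ± 2.60), Srsf7 (54.8 ± 4.98) and Tra2a (48.1 ± 2.26) followed, and Srsf1 and Srsf6 did not differ beyond their spread. Srsf3 stood at 36.9 ± 2.89, Srsf4 at 17.0 ± 4.05 and Srsf5 at 13.3 ± 2.09. Tra2b (11.2 ± 0.368) and Srsf10 (8.72 ± 0.655) were lowest by this measure. The junction table placed Tra2b differently, with 1803 known-junction reads in wild-type replicate 1 beside 2332 reads on its transcript, and with junction CPM near those of Srsf7 (379 and 335 against 370 and 428 in wild type). Its rank by RPKM is therefore uncertain, and the cause of the disagreement was not tested.

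**Figure D1:**
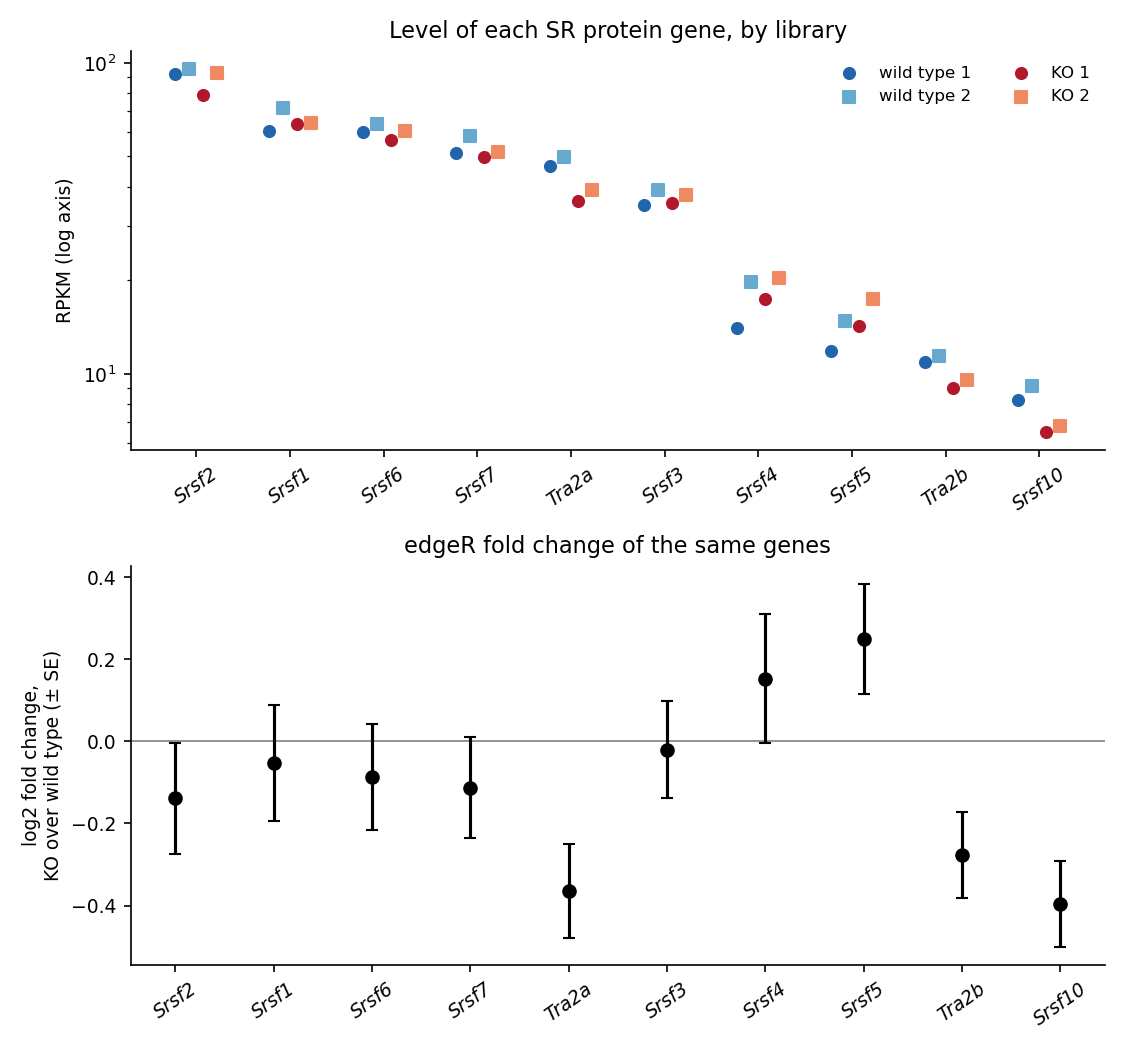
Upper panel: RPKM of each SR protein gene on a log axis, with 1 point per library, genes ordered by the wild-type mean. Lower panel: edgeR log2 fold change of KO over wild type with its standard error as bars. Srsf10, Tra2a and Tra2b lie farthest below 0 (-0.40, -0.37 and -0.28) and Srsf5 farthest above (0.25).

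Inclusion of the Srsf3 poison exon was asked next, since it bears on whether the mRNA is coding or destined for decay. Junction reads come from RNA still present, so less splicing in of a poison exon cannot be told apart from more decay. Inclusion is the mean of the reads on both inclusion junctions over that mean plus the skipping reads. It was 57.7% in wild-type replicate 1 (95% Clopper-Pearson interval 48.0 to 67.4%) and 20.5% in wild-type replicate 2 (16.1 to 25.6%), against 21.1% (15.5 to 27.5%) and 19.6% (13.5 to 26.9%) in KO replicates 1 and 2. Wild-type replicate 1 stood apart, and the other wild type could not be separated from the KOs. The means were 39.1 ± 26.3% in wild type and 20.3 ± 1.03% in KO (SD, n = 2 each), a difference smaller than the spread within wild type. The log2 odds of inclusion changed by -1.15 (SE 0.76, edgeR adjusted p = 0.742), and by -0.02 without wild-type replicate 1.

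The counts behind these shares place the departure in a single junction. The junction from exon 3 to exon 5 of Srsf3, which leaves the poison exon out (chromosome 17, 29175569 to 29177720), had 45 reads in wild-type replicate 1, 236 in wild-type replicate 2, and 150 and 119 in KO replicates 1 and 2. The junction into the poison exon had 46, 58, 34 and 26 reads, and the junction out of it 77, 64, 46 and 32, in the same order. As shares of the Srsf3 junction reads in each library, skipping made up 3.21%, 12.2%, 15.7% and 12.0%, while the junction into the exon made up 3.28%, 3.0%, 3.56% and 2.62%. The junction out of the exon made up 5.50%, 3.31%, 4.82% and 3.23%. The skipping junction was thus low in 1 library, while both inclusion junctions varied less. Against the gene's other junctions, skipping differed by 0.57 on the log2 scale between KO and wild type (unadjusted p = 0.0198, adjusted p = 1.00 by edgeR's diffSpliceDGE) and by 0.13 when wild-type replicate 1 was left out. With wild-type replicate 2 left out instead, it differed by 1.46 (adjusted p = 0.0376 by diffSpliceDGE, where 0.0137% of all junctions passed). That fit sets wild-type replicate 1 alone, the library with the low count, against both KOs and takes its spread from the KOs only, so the p describes that library.

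Of the 64 member junctions tested for relative usage, 0 passed in diffSpliceDGE, and 2 had an unadjusted p under 0.05. They were the Srsf3 skipping junction and a Tra2b junction (22251053 to 22252680), whose usage differed by 0.44 on the log2 scale (unadjusted p = 0.0493, adjusted p = 1.00 by edgeR's diffSpliceDGE), and by 0.21 with KO replicate 2 omitted. Over all 95139 junctions of 9475 genes, 0.0042% passed and 2.55% had an unadjusted p under 0.05. limma-voom's diffSplice also called 0 of the 64, and 1 of all 95139 junctions. By that test 5 of the 64 had an unadjusted p under 0.05, and the share of all junctions at such a p was not counted. Downstream in Srsf3, the junction from exon 5 to exon 6 made up 29.7% and 24.1% of the gene's junction reads in wild type and 18.5% and 16.4% in KO. The groups did not overlap there, and its relative usage differed by -0.43 on the log2 scale (unadjusted p = 0.0626, diffSpliceDGE adjusted p = 1.00). How often the groups are apart on other junctions was not counted.

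**Figure D2:**
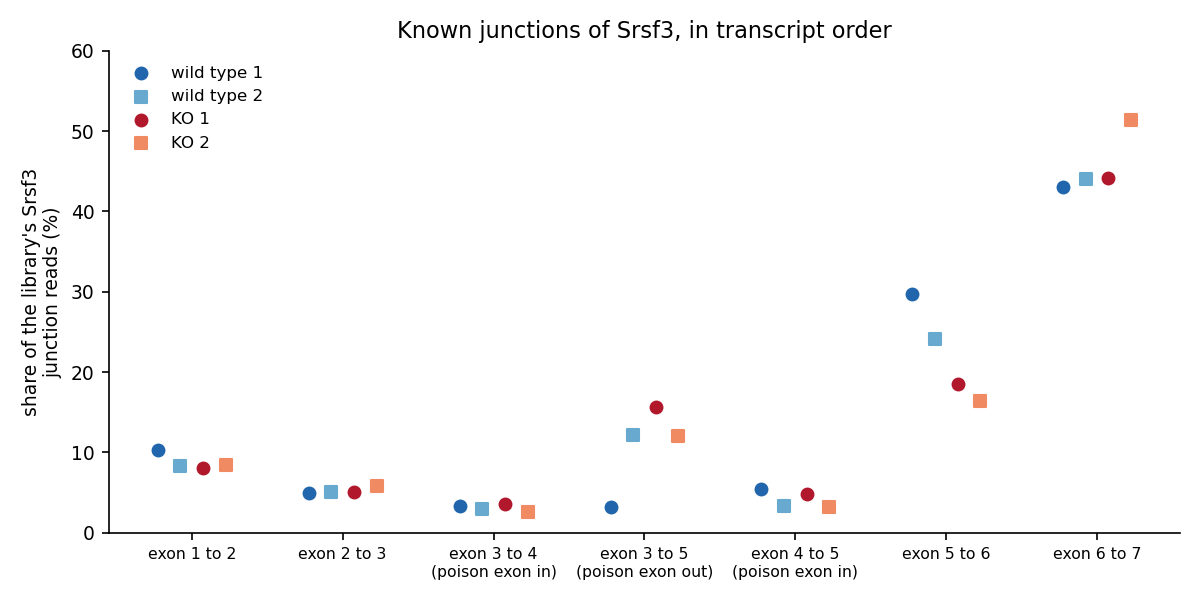
Share of each library's Srsf3 junction reads on its 7 known junctions, in transcript order, with 1 point per library. On the junction that leaves the poison exon out, wild-type replicate 1 lies at 3.21% and the other libraries between 12.0 and 15.7%, while both junctions that include it are at 2.62 to 5.50% in all 4.

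Reads within the exon itself gave another readout of the poison exon. They were taken as the reads that transcript NR_036613 holds beyond NM_013663, which lacks only this exon. There were 3008 and 4707 such reads in wild type and 2409 and 2683 in KO, or 6.60, 10.3, 5.28 and 5.88 reads per nt. This was 2.25 and 2.72 times the reads per nt of the rest of the mRNA in wild type, and 2.72 and 2.55 times in KO. The groups overlapped, and wild-type replicate 1, the highest by junction reads, was the lowest by reads within the exon. In all 4 libraries the poison exon was thus covered more densely than the mRNA around it, whereas 3 of 4 libraries had an inclusion of 19.6 to 21.1% by junction reads. The libraries were made from total RNA depleted of ribosomal RNA, and how much of it was nuclear or unspliced was not tested.

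The Srsf7 poison exon had a lower inclusion by junction reads than that of Srsf3. Its inclusion was 13.4% (95% Clopper-Pearson interval 8.23 to 19.6%) and 8.28% (5.25 to 12.8%) in wild type, and 7.69% (3.19 to 13.8%) and 7.27% (3.19 to 13.8%) in KO. Both KO libraries lay below both wild types, but the intervals of all 4 overlapped. By the upstream inclusion junction alone the groups overlapped too, at 14.3% and 9.24% in wild type and 8.93% and 10.5% in KO, a difference of -2.04 percentage points against -4.84 by the downstream junction alone. The means were 10.9 ± 3.65% and 7.48 ± 0.297% (SD, n = 2 each), and the log2 odds differed by -0.58 (SE 0.80, edgeR adjusted p = 0.963). These values rest on few reads, with 22, 22, 10 and 12 on the upstream inclusion junction, 19, 17, 7 and 4 on the downstream one, and 132, 216, 102 and 102 on the skipping junction. Without wild-type replicate 1 the difference in inclusion shrank from -3.38 to -0.80 percentage points.

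Reads within the Srsf7 poison exon, taken as those of NR_036615 beyond NM_001195485, numbered 2368 and 3855 in wild type and 1796 and 2073 in KO. Their density was 1.01 and 1.21 times that of the rest of the mRNA in wild type and 1.17 and 1.19 times in KO, so the groups overlapped. As in Srsf3, wild-type replicate 1 was highest by junction reads and lowest by reads within the exon. Both poison exons thus held about as many reads per nt as the coding mRNA or more, with inclusion by junction reads of 19.6 to 57.7% for Srsf3 and 7.27 to 13.4% for Srsf7.

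**Figure D3:**
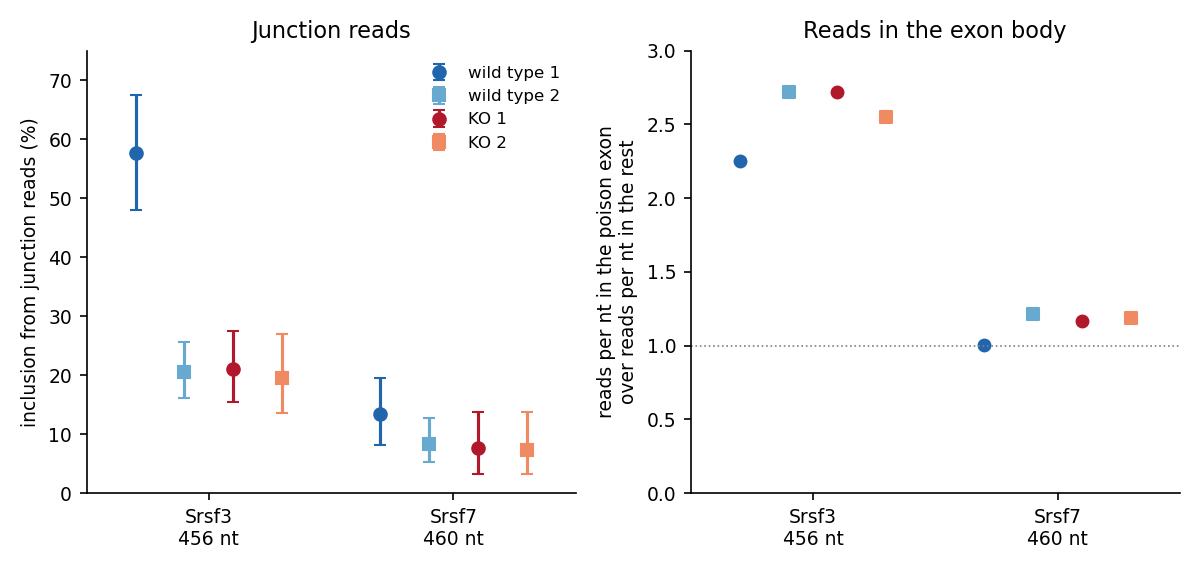
Left: inclusion of the Srsf3 and Srsf7 poison exons from junction reads, with 95% Clopper-Pearson intervals, 1 point per library. Right: reads per nt in the poison exon divided by reads per nt in the rest of the mRNA. By junctions wild-type replicate 1 is highest for both exons (57.7% and 13.4%), by reads within the exon it is lowest for both (2.25 and 1.01).

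Srsf7 also has an in-frame cassette exon of 36 nt, exon 7 of the full-length coding transcript (chromosome 17, 80601509 to 80601544, minus strand). It is shown because it had the most reads of the cassette exons with a known skipping junction, and it adds to the arginine-serine domain without shifting the frame.
Srsf7 exon 7: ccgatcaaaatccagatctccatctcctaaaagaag

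Its inclusion was 80.9% and 78.7% in wild type and 82.7% and 80.9% in KO. The values lay within a narrow range and the groups overlapped (79.8 ± 1.54% and 81.8 ± 1.33%, SD, n = 2 each; log2 odds 0.18, SE 0.65, edgeR adjusted p = 0.993). Farther upstream in the transcript, 3 alternative donor sites are joined to the acceptor at 80602084. The share of the main one (80603462) was 82.7% and 86.7% in wild type and 81.1% and 82.5% in KO, and that of the next (80603471) was 14.5% and 10.04% against 16.3% and 16.5%. The KO libraries lay just below and just above the wild types, at distances smaller than the difference between the wild types.

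Over all members, 48 internal exons had both inclusion junctions with at least 5 reads and a listed skipping junction. For 38 of them no read skipped that exon alone, which allows a share of such skipping of up to 0.456% to 13.0% in a library, depending on the depth. Junctions that skip several exons at once were not counted here. Some of the 38 exons lie under such a junction, for example a putative Tra2a junction (49196963 to 49202381) with 2 reads in wild-type replicate 2. Of the other 10, 3 had a known skipping junction (both poison exons and the 36-nt exon of Srsf7). The rest had 1 to 3 reads on a skipping junction over all libraries, apart from a putative Tra2b junction that skips a pair of exons of 60 and 84 nt (chromosome 16, 22247336 to 22250938). It held 2 and 0 reads in wild type and 6 and 1 in KO, while the 3 junctions it bypasses held 60 to 843 each. Of the 5 member exons with enough reads for the inclusion test, 0 passed with edgeR and 0 had an unadjusted p under 0.05. Among all 3097 exons tested 0.0% passed and 5.84% had an unadjusted p under 0.05. The 5 count those 2 Tra2b exons separately, although both tests use the same skipping junction. Each also uses an inclusion junction almost without reads (1, 0, 0 and 0 for the 60-nt exon, 0, 0, 1 and 1 for the 84-nt exon). These 2 tests are therefore not separate results.

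Srsf10 is the member in which transcripts of one gene differed most in their fold change. After exon 5 it is spliced either to a proximal last exon, which encodes a longer arginine-serine domain (transcript NM_001080387, 262 codons), or to a distal one with an early stop (NM_010178, 183 codons). Shown is the coding part of both last exons, from the GENCODE M21 transcripts matched to these RefSeq entries (GRCm38), up to the stop codon in capitals.
Srsf10 proximal last exon: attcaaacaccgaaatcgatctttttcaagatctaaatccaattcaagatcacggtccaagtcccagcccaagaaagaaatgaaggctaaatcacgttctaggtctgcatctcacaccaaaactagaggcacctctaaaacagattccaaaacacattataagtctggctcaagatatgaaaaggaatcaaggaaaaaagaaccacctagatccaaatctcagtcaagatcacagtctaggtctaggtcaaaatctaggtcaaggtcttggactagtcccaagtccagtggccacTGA
Srsf10 distal last exon: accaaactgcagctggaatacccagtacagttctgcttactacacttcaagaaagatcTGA

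The junction to the distal exon (chromosome 4, 135419491 to 135423041) had 42, 80, 32 and 18 reads, and that to the proximal exon (135419491 to 135419644) 92, 184, 104 and 127, in wild-type replicates 1 and 2 and KO replicates 1 and 2. The distal share was 31.3% (95% Clopper-Pearson interval 23.6 to 39.9%) and 30.3% (24.8 to 36.2%) in wild type, and 23.5% (16.7 to 31.6%) and 12.4% (7.53 to 18.9%) in KO. The wild types were nearly alike, KO replicate 2 lay below both of their intervals, and the interval of KO replicate 1 overlapped them. The means were 30.8 ± 0.736% and 18.0 ± 7.86% (SD, n = 2 each). Against the gene's other junctions, usage of the proximal one differed by 0.41 on the log2 scale (unadjusted p = 0.0520, adjusted p = 1.00 by edgeR's diffSpliceDGE). Usage of the distal one differed by -0.29 (unadjusted p = 0.285, adjusted p = 1.00 by edgeR's diffSpliceDGE), by -0.025 with KO replicate 2 omitted and by -0.66 with KO replicate 1 omitted, so its size rests on KO replicate 2.

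Transcript counts of Srsf10 separated the groups as well. The transcript with the distal exon held 2801 and 3828 reads in wild type and 1531 and 1742 in KO, and the transcript with the proximal exon 2170 and 2825 against 1438 and 1764. Their ratio was 1.29 and 1.36 in wild type and 1.06 and 0.988 in KO. When every transcript was fitted as a feature of its own, the distal transcript had a log2 fold change of -0.40 (SE 0.10, unadjusted p = 0.0055, edgeR adjusted p = 0.423) and the proximal transcript one of -0.03 (SE 0.11, adjusted p = 0.936). The lower level of Srsf10 given above, which was measured on the transcript with the distal exon, was thus not seen on the transcript that ends at the proximal one. Both transcripts share the reads of their first 5 exons, so the counts are not independent, and the difference between them was not tested beyond the junction test.

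**Figure D4:**
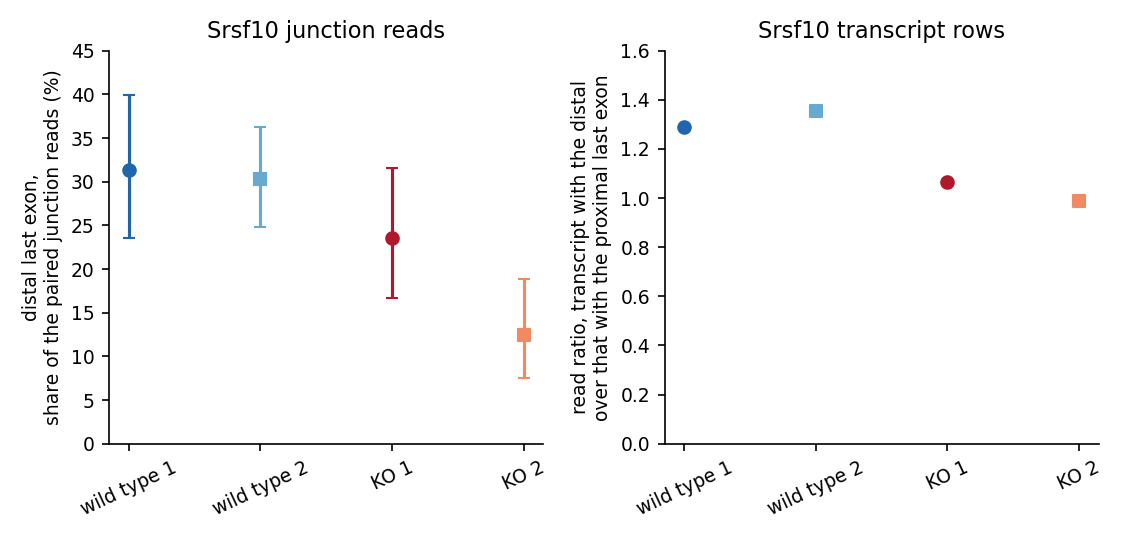
Left: share of Srsf10 junction reads from exon 5 that lead to the distal last exon, with 95% Clopper-Pearson intervals. Right: ratio of reads on the transcript with the distal to that with the proximal last exon. Both KO libraries lie below both wild types in each panel (23.5% and 12.4% against 31.3% and 30.3%, and 1.06 and 0.988 against 1.29 and 1.36).

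Srsf1 and Srsf5 also have more than 1 transcript, while Srsf2 has 1. In Srsf1, a transcript that retains the last intron of 196 nt and encodes 201 codons in place of 248 was distinguished by 180 and 205 reads in wild type and 79 and 235 in KO. The intron was covered at 0.148 and 0.115 times the density of the mRNA in wild type and 0.0886 and 0.241 times in KO, so the KO libraries lay on either side of the wild types. In Srsf5, the added length of 126 nt of a longer first exon held 66 to 136 reads per library. Its density was 0.620 and 0.576 times that of the mRNA in wild type and 0.510 and 0.498 times in KO. Both KO libraries lay below both wild types there, a difference that was not tested. The 3 alternative first-exon ends of Srsf5 did not separate the groups by junction reads, with a share for the most downstream one of 29.3% and 53.8% in wild type and 42.9% and 52.9% in KO. In Srsf2, the junction between its first exons held 17, 12, 4 and 4 reads where the next held 747, 989, 431 and 538, and its relative usage differed by -0.71 on the log2 scale (unadjusted p = 0.164, diffSpliceDGE adjusted p = 1.00).

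Genes that act together with SR proteins were read from 3 lists. Among 27 other SR-like and associated splicing genes, 0 passed with edgeR and 4 had an unadjusted p under 0.05, with a median log2 fold change of 0.03. These were 2 on the higher and 2 on the lower side, where 6.29% and 3.61% of all genes had such a p. Sfrs18 (0.45, SE 0.14) and Srrm1 (0.43, SE 0.14), a coactivator of exon enhancers, were higher in KO before adjustment, and U2af2 (-0.37, SE 0.12), which binds the polypyrimidine tract at the splice acceptor, and Srsf9 (-0.31, SE 0.11) were lower. Among 19 genes of nonsense-mediated decay and the exon junction complex, 0 passed and 3 had an unadjusted p under 0.05, all of them higher: Upf2 (0.39, SE 0.11), Upf3b (0.48, SE 0.16) and Nbas (0.35, SE 0.13), with a list median of 0.02 and 6.29% of all genes on that side. Upf2 and Upf3b connect the exon junction complex to the decay factor Upf1.

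Of 10 SR protein kinases and import partners, 9 were tested, 0 passed and 1 had an unadjusted p under 0.05, on the lower side (3.61% of all genes), with a median of -0.03. This was Clk3, a kinase that phosphorylates SR proteins in the nucleus, with 443 and 413 CPM in wild type and 374 and 260 in KO (log2 fold change -0.43, SE 0.18, edgeR adjusted p = 0.500). Without KO replicate 1 it differed by -0.73 and passed (adjusted p = 0.0318), a fit in which the lone KO library was assumed to vary like the wild types and in which 2.96% of all 14440 genes tested passed with edgeR. DESeq2 and limma-voom also called 0 of the 55 tested genes of the 3 lists.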

How the data were processed

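Libraries from rRNA-depleted total thymocyte RNA were sequenced on the SOLiD platform. Per the file headers, only primary alignments of mapping quality 10 or more entered the authors' counting, and they deposited raw counts per RefSeq transcript, a signal of reads per nt, and RPKM values scaled by the mapped reads of each header (69061265 to 122619310). The deposited junction tables hold raw counts on known and putative junctions. The build is mm9, per the submitters' processing notes. The aligner, strand handling and the rule for reads that overlap an exon in part are not stated there or in the labels.

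The transcript with the most reads was kept per gene and tested with edgeR 4.0.16 in R 4.3.3 (robust quasi-likelihood test, TMM scaling, filter on low counts, Benjamini-Hochberg adjustment over all genes, threshold 0.05). CPM values are TMM-scaled. Junctions with at least 10 reads in all were tested for relative usage with diffSpliceDGE, and exons with at least 10 reads per library for inclusion odds in an edgeR model with a term per library. Scripts were checked on simulated counts. Alternatives used DESeq2 1.42.0 and limma 3.58.1. Intervals are Clopper-Pearson at 95%, and like the limit of 3 reads for a count of 0 they cover counting error only. For inclusion they use the mean of both inclusion junctions, rounded to a whole read, so both KO libraries have the same interval for Srsf7. Such a mean is not itself a binomial count, so these intervals are approximate. p-values weigh a difference against the spread between 2 mice a group, as estimated with help from all features in the fit.

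All 10 genes are named. Cassette exons named are those of up to 1000 nt with at least 5 inclusion reads and a listed skipping junction. The term poison exon is kept for those that carry a stop in frame, although the rule also took exons whose length is no multiple of 3. From each companion list up to 3 genes of smallest p are named, plus Srsf9 of the first list, which was added after its value was seen. The members and lists were chosen with earlier results of these data known. Srsf10 ends, nested transcripts, the word ACACA and the CA counts were chosen after values were seen.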

Additional observations from a re-analysis of the deposited data

How the results depend on the processing

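With 2 mice a group, effects of the size seen here mostly stay below the threshold, and junction values rest on few reads. The number of members past the threshold stayed at 0 under all 12 alternatives for gene level and all 9 for exon inclusion. For junction usage it was 0 to 1 with each library left out in turn, the 1 being the Srsf3 skipping junction without wild-type replicate 2 (1.46, adjusted p = 0.0376, with wild-type replicate 1 as the lone wild type), and for the companion genes 0 to 1. Some log2 fold changes near 0 changed sign. Srsf3 stood at 0.032 under upper-quartile scaling. With a library left out, Srsf1 ranged from -0.13 to 0.030 (positive when wild-type replicate 2 was omitted), Srsf3 from -0.050 to 0.017 (positive when wild-type replicate 2 or KO replicate 1 was omitted) and Srsf4 from -0.029 to 0.37 (negative when wild-type replicate 1 was omitted). Usage of the Srsf3 inclusion junctions ranged from -0.18 to 0.13 into the exon and from -0.31 to 0.20 out of it, positive when wild-type replicate 1 or KO replicate 2 was omitted. The cause was not tested. The other 224 values for single genes, exons and junctions kept their direction and side of the threshold, though not always their size. Among them Srsf10 moved from -0.40 to -0.23 with transcripts summed, where reads on shared exons are counted for each transcript. The difference in poison exon inclusion ranged from -37.4 to -0.22 percentage points for Srsf3 and from -5.96 to -0.80 for Srsf7 with a library left out. Measured by reads within the exon, an alternative chosen after seeing the data, it was 1.29 points for Srsf3 and 0.90 for Srsf7, on the share of the transcript's reads. Replicate numbers do not pair the mice in the labels, and with 2 pairs the correlation of same-numbered deviations was 0.259. With the replicate number as a block, edgeR called 0 members, 0 companion genes, 0 member junctions and 0 member exons, with 52 genes higher and 69 lower over all genes against 1 and 0.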
